A study of Capra hircus with 6 samples.

Results

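FASN and GPAM, a pair of enzymes of milk fat synthesis, were examined in the lactating mammary gland of goats of Low or High CSN1S1 genotype. The genes were chosen by their role in milk fat and by their lower ratios of Low over High on these same arrays, so their Low over High values below are a description and carry no test. They are 2 of the 6535 genes that had a probe with a single symbol, and each was represented by 1 of the 8379 probes (Bt00007365 for FASN and 1001864576 for GPAM). Each probe was printed as 2 spots per array.

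FASN, fatty acid synthase, is a large cytosolic enzyme that builds saturated fatty acids from acetyl-CoA and malonyl-CoA with NADPH as reductant. In the mammary gland of ruminants it is the source of the short- and medium-chain fatty acids of milk. GPAM, the mitochondrial glycerol-3-phosphate acyltransferase, joins an activated fatty acid to glycerol-3-phosphate, the first committed step on the way to triacylglycerol, the main lipid of the milk fat globule.

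The study asked how the CSN1S1 polymorphism, which sets the amount of alpha-s1-casein in goat milk, relates to gene expression in the gland. The Low group held 3 lactating goats with the Low CSN1S1 genotype, and the High group held 3 lactating goats with the High CSN1S1 genotype. All 6 goats received a control diet without restriction. Each array compared 1 Low with 1 High goat in 2 colours (5 µg of total RNA per channel), and each of the 3 pairs was hybridised on 2 arrays with the dyes exchanged. The scanner's image names carry the letters FF for the Low channel in 6 of 6 files and AA for the High channel in 6 of 6. The sources used here do not give breed, age or stage of lactation, and whole gland tissue was sampled, so fewer cells of a type and less RNA per cell cannot be told apart. Since the 2 arrays of a pair hold the same RNA, they counted as 1 replicate, and every mean below has n = 3 pairs unless a pair was left out.

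CSN1S1 itself, which checks the labels, had a log2 ratio of Low over High of -2.63, -2.20 and -2.44 in the 3 pairs. It averaged -2.43 ± 0.22 (SD, n = 3 pairs), with an adjusted p of 5.14e-04 in limma, and was lower in Low on 6 of 6 arrays. Without moderation of the variance it did not pass (adjusted p = 0.852 in limma, and between 5.15e-07 and 0.852 over all alternatives), and its spots were saturated in pairs 2 and 3 where Low carried Cy5. Between 74.1% and 82.1% of the probe spots on an array carried no flag, and the number of arrays limits the precision. The pair 3 array with Low in Cy3 stood apart in its duplicate spots, whose ratios correlated across probes at r = 0.557, against 0.735 to 0.795 on the other arrays. Of the 6378 probes with signal above background, 7 (0.11%) passed an adjusted p of 0.05 in limma in either direction. All 7 were lower in Low (0.11%) and 0 were higher (0%), while 342 (5.36%) had an unadjusted p under 0.05.

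For FASN, the signal above background in pair 1 was 623 scanner units in the Low goat and 1080.3 in the High goat when Low carried Cy5. With Low in Cy3 it was 1712 in the Low goat and 2328.5 in the High goat. Pair 2 gave 818 units in Low and 1128 in High with Low in Cy5, and 984 in Low and 1309 in High with Low in Cy3. In pairs 1 and 2, then, the Low goat gave the weaker FASN signal in both dye orientations. Pair 3 gave 1661 units in Low and 1914 in High with Low in Cy5. With Low in Cy3 it gave 3314 units in Low and 3087 in High, the single array on which the Low goat gave the stronger FASN signal. FASN exceeded its local background in both channels on 6 of 6 arrays.

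After loess normalization, which removes the intensity-dependent difference between the dyes on an array, the log2 ratio of Low over High for FASN in pair 1 was -0.84 with Low in Cy5 and -0.35 with Low in Cy3. In pair 2 it was -0.49 with Low in Cy5 and -0.20 with Low in Cy3. In pair 3 it was -0.48 with Low in Cy5 and 0.40 with Low in Cy3. FASN was therefore below 0 on 5 of 6 arrays, and the arrays of pair 3 pointed in opposite directions. The duplicate spots were close together, with a median gap of 0.04 and a largest gap of 0.18 in log2, so the opposed values of pair 3 were each given by both spots.

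**Figure D1:**
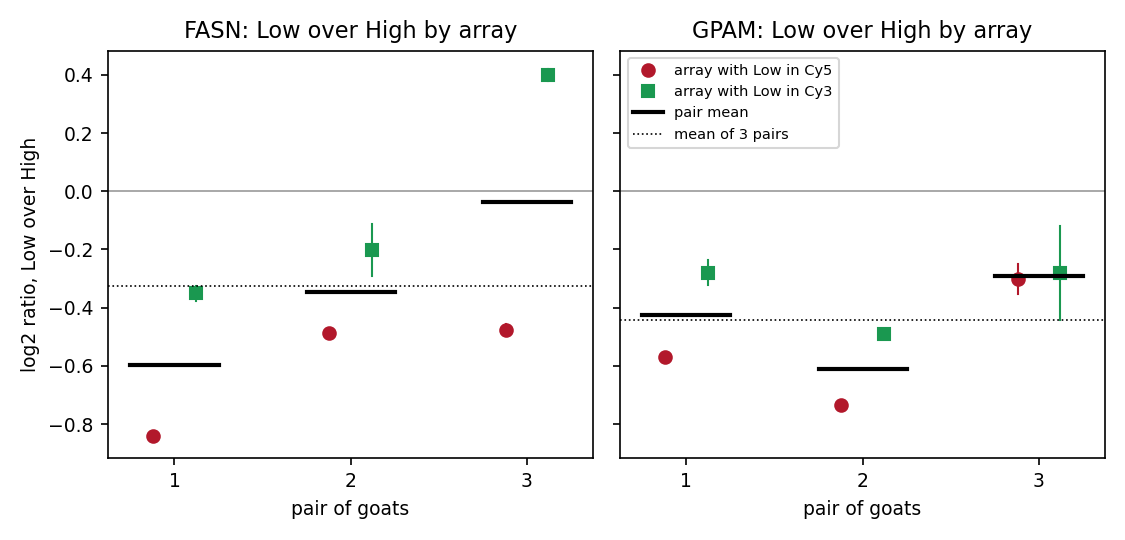
Log2 ratio of Low over High (y axis) for FASN and GPAM in each of the 3 goat pairs (x axis). Red circles are arrays with Low in Cy5 and green squares arrays with Low in Cy3, thin lines span the 2 spots of the probe, thick bars are pair means and the dotted line is the mean of 3 pairs. All GPAM points lie below 0, while the FASN square of pair 3 lies at 0.40.

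Averaged over the dye swap, FASN had pair ratios of -0.60, -0.34 and -0.04. In linear terms the Low goat had 66.2% of the FASN signal of its High partner in pair 1, 78.8% in pair 2 and 97.4% in pair 3. Pair 1 thus carried the widest gap, and in pair 3 the goats were nearly level. The mean of the 3 pairs was -0.33 ± 0.28 (SD, n = 3 pairs), or 79.8% of High (1.25-fold lower). Without pair 1 the mean was -0.19, and without pair 3 it was -0.47. A mean ratio at or below that of FASN was found for 45 of the 6378 probes (0.706%, FASN included), a position that follows from how the gene was chosen.

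GPAM was measured at lower signal. In pair 1 it gave 230.4 scanner units above background in the Low goat and 325 in the High goat with Low in Cy5, and 387 in Low and 508 in High with Low in Cy3. Pair 2 gave 254 units in Low and 467 in High with Low in Cy5, and 383 in Low and 648 in High with Low in Cy3. The Low goats of both pairs were below their High partners on each array. Pair 3 gave 175 units in Low and 176 in High with Low in Cy5, and 72.2 in Low and 133 in High with Low in Cy3. On that last array the Low signal was below its own local background of 88.4 units, and 1 of the 2 Low spots passed the detection limit. GPAM nevertheless had at least 1 detected spot in both channels on 6 of 6 arrays.

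**Figure D2:**
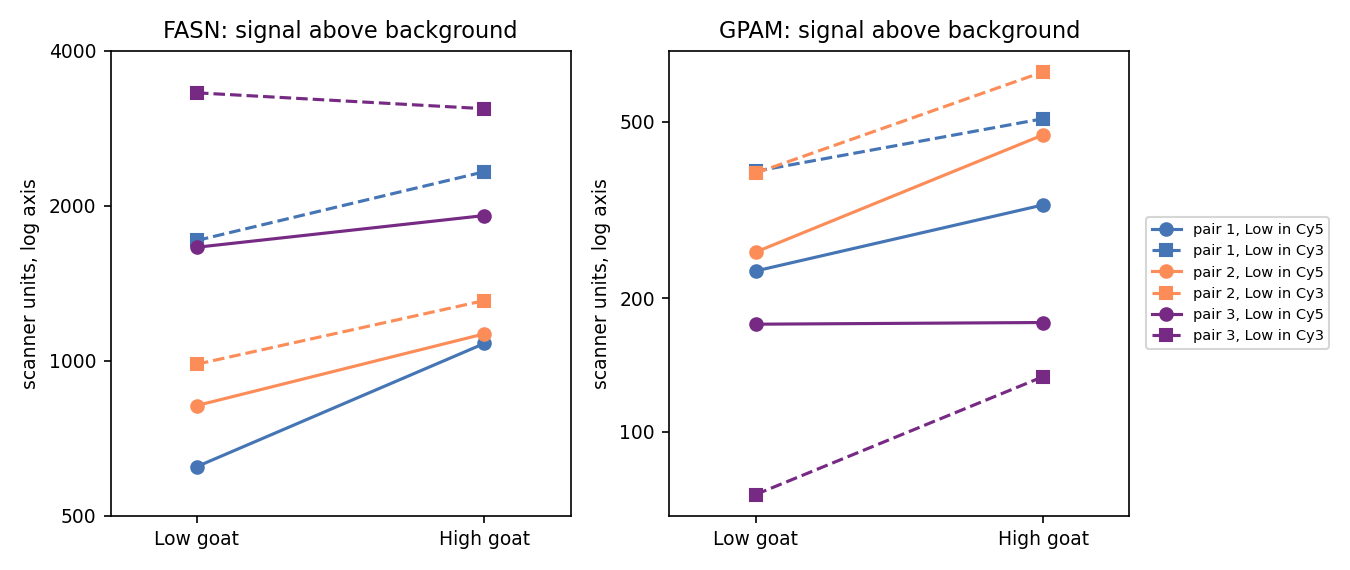
Signal above local background in scanner units (y axis, log scale) of FASN and GPAM in the Low goat and the High goat (x axis) of each array, before normalization. Lines join the 2 channels of an array, solid with Low in Cy5 and dashed with Low in Cy3. Most lines climb toward the High goat, except FASN on the pair 3 array with Low in Cy3 (3314 units in Low, 3087 in High) and GPAM on the pair 3 array with Low in Cy5, where the goats were level (175 units in Low, 176 in High).

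The normalized GPAM ratio in pair 1 was -0.57 with Low in Cy5 and -0.28 with Low in Cy3. In pair 2 it was -0.73 with Low in Cy5 and -0.49 with Low in Cy3. In pair 3 it was -0.30 with Low in Cy5 and -0.28 with Low in Cy3. GPAM was thus below 0 on 6 of 6 arrays. In pair 3, where FASN changed sign with the dye, the normalized GPAM ratios of the 2 arrays differed little. Before normalization the GPAM log2 ratios of pair 3 were -0.01 with Low in Cy5 and -0.88 with Low in Cy3. Of the 5717 probes with a value on all 6 arrays, 80 (1.4%) were below 0 on each of them, and GPAM belongs to these through its choice. Its duplicate spots had a median gap of 0.05 and a largest gap of 0.32, and this largest gap was on the dim pair 3 array with Low in Cy3, where the spots read -0.12 and -0.44.

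The GPAM pair means were -0.42, -0.61 and -0.29. The Low goat had 74.5% of the GPAM signal of its High partner in pair 1, 65.5% in pair 2 and 81.8% in pair 3. The widest gap therefore lay in pair 2 for GPAM and in pair 1 for FASN, and both genes had their narrowest gap in pair 3. The mean GPAM ratio was -0.44 ± 0.16 (SD, n = 3 pairs), or 73.6% of High (1.36-fold lower), and it lay between -0.52 and -0.36 when 1 pair was left out. A mean ratio at or below that of GPAM was found for 25 of the 6378 probes (0.392%, GPAM included). A ratio below 0 in 3 of 3 pairs, which both genes had, was found for 869 probes (13.6%).

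The authors' own log2 ratios, deposited per spot, gave nearly the same values. In the authors' deposited table FASN averaged -0.33 ± 0.28 (SD, n = 3 pairs) and was below 0 on 5 of 6 arrays, with 0.39 on the pair 3 array with Low in Cy3. GPAM averaged -0.46 ± 0.13 (SD, n = 3 pairs) in the authors' deposited table and was below 0 on 6 of 6 arrays. The sign change of FASN in pair 3 was thus present in both versions of the values.

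How far a single array can be read for these probes was measured by the dye effect, which is the part of the ratio that changes sign when the dyes are exchanged and which played no part in choosing the genes. FASN read lower in Cy5 than in Cy3 by a log2 effect of -0.25, -0.14 and -0.44 in the 3 pairs. The mean dye effect of FASN was -0.28 ± 0.15 (SD, n = 3 pairs; 95% interval -0.41 to -0.14), with an adjusted p of 0.00916 in limma. Dye effects were common on these arrays: 1995 of 5717 probes (34.9%) passed the same threshold, 1005 of them (17.6%) lower in Cy5, and the median size over all probes was 0.10. The size of the FASN dye effect was thus near that of its Low over High ratio, and the mean over arrays with Low in Cy5 was -0.60, against -0.05 over arrays with Low in Cy3. Under print-tip loess the FASN dye effect was -0.16 and did not pass (adjusted p = 0.072 in limma, and between 0.00022 and 0.072 over all alternatives).

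GPAM had a mean dye effect of -0.09 ± 0.07 (SD, n = 3 pairs; 95% interval -0.20 to 0.02), which did not pass (adjusted p = 0.166 in limma). Its mean ratio was -0.53 over arrays with Low in Cy5 and -0.35 over arrays with Low in Cy3, so GPAM was below 0 in either orientation. Without pair 3 the GPAM dye effect was -0.13 and passed (adjusted p = 0.048 in limma, and between 0.048 and 0.532 over all alternatives). Whether the dye effects of FASN and GPAM differ from each other was not tested.

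**Figure D3:**
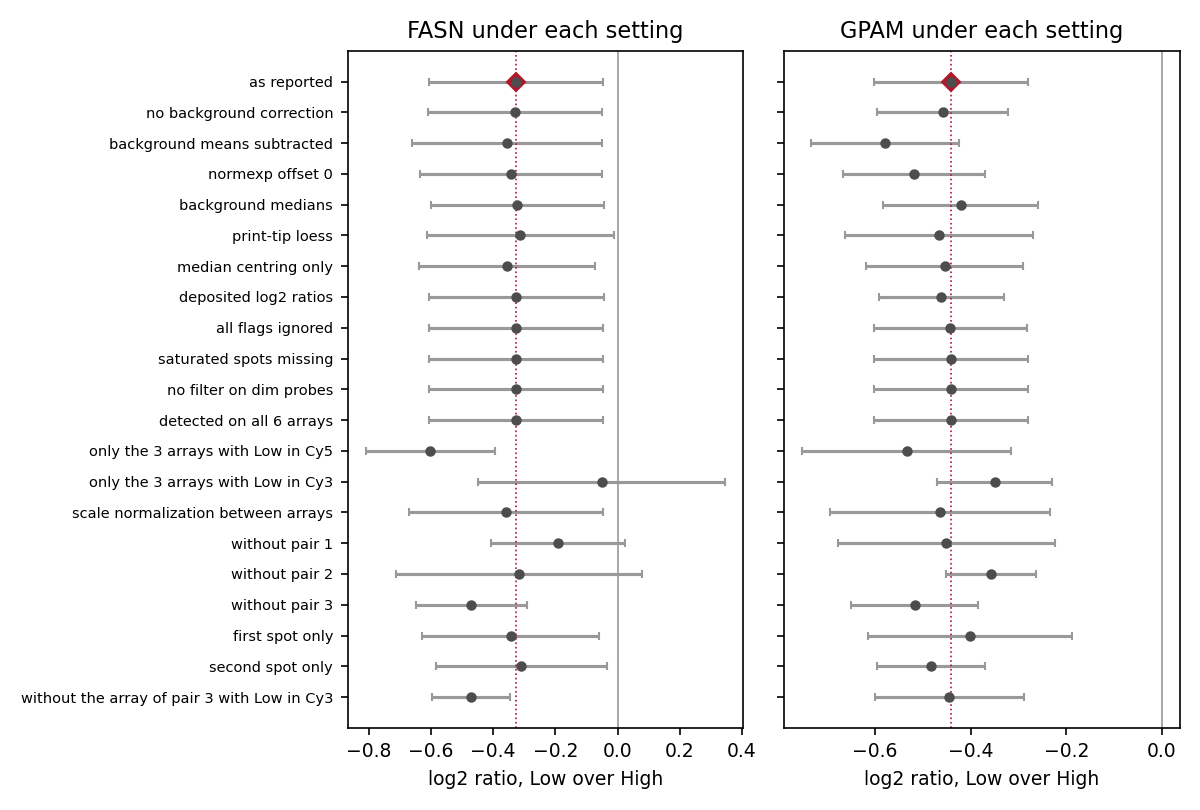
Mean log2 ratio of Low over High (x axis) for FASN and GPAM as reported (red diamond) and under each other way of processing the arrays (y axis), with bars of 1 SD over pairs, or over arrays where only 1 dye orientation was used. The FASN points range between -0.60 and -0.05, set by the dye orientation, and the GPAM points between -0.58 and -0.35.

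Around FASN in its pathway stand the enzymes that supply acetyl-CoA, malonyl-CoA and NADPH. Of 8 such genes measured beside FASN, 0 passed in limma in either direction. Of all probes tested 0.11% passed, the share to set beside each list below. A mean ratio below 0 was found for 7 of the 8, beside 3100 of 6333 probes tested without a numeric identifier. The median of the 8 genes was -0.05, against 0.0014 over all probes tested. It was 0.19 over arrays with Low in Cy5 and -0.29 over arrays with Low in Cy3. ACSS2, which makes acetyl-CoA from acetate, the main carbon source for milk fatty acids in ruminants, had -0.23 ± 0.55 (SD, n = 3 pairs). Its pair ratios of 0.15, 0.01 and -0.86 placed almost all of that mean in pair 3, where FASN was nearly level, and it had a value on 4 arrays only. PGD, an NADPH source in the pentose phosphate pathway, had the highest mean of the group at 0.03 ± 0.06 (SD, n = 3 pairs). ACLY, which splits citrate to acetyl-CoA, was not above background. ACACA, which makes malonyl-CoA for FASN, had no probe under its symbol alone.

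Besides fatty acids made by FASN, the gland takes up fatty acids from blood. Of 10 genes of uptake, activation and binding, 0 passed in limma, and their median was -0.02. LPL, which releases fatty acids from blood lipoproteins, had -0.05 ± 0.20 (SD, n = 3 pairs), but its value turned with the dye, at 0.61 over arrays with Low in Cy5 and -0.71 over arrays with Low in Cy3. FABP3, a binding protein for fatty acids in the cell, had -0.01 ± 0.08 (SD, n = 3 pairs). The lowest of these genes was ACSL6, an acyl-CoA synthetase, at -0.14 ± 0.03 (SD, n = 3 pairs; adjusted p = 0.807 in limma), and the highest was SLC27A2, a fatty acid transporter, at 0.10. CD36 and ACSL1 were not above background, with 2 probes each. For desaturation and elongation, ELOVL1 (0.04) and TECR (0.08) were measured and did not pass. SCD and FADS1 had no probe under their symbol alone.

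GPAM shares its reaction with other acyltransferases, which allowed a comparison within the family. GPAT4, the endoplasmic reticulum enzyme for the same step, had pair ratios of 0.10, 0.04 and -0.02 and a mean of 0.04 ± 0.06 (SD, n = 3 pairs). GPAT2, a mitochondrial relative, had -0.07 ± 0.04 (SD, n = 3 pairs), and GPAT3 was not above background. The pair ratios of GPAM, between -0.61 and -0.29, lay below those of both measured relatives in each pair, an order that its choice for low ratios favours. AGPAT1, which adds the next fatty acid, had 0.05 ± 0.07 (SD, n = 3 pairs), and DGAT1, which completes triacylglycerol, had 0.03 ± 0.02 (SD, n = 3 pairs). Both turned with the dye. Over arrays with Low in Cy5 AGPAT1 had 0.28 and DGAT1 -0.06, against -0.18 and 0.12 over arrays with Low in Cy3. Of the 8 measured genes of glycerolipid assembly other than GPAM, 0 passed in limma. Their median was 0.03, and the lowest was PLPP1, a lipid phosphatase, at -0.11. LPIN1 and DGAT2 had no probe under their symbol alone.

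**Figure D4:**
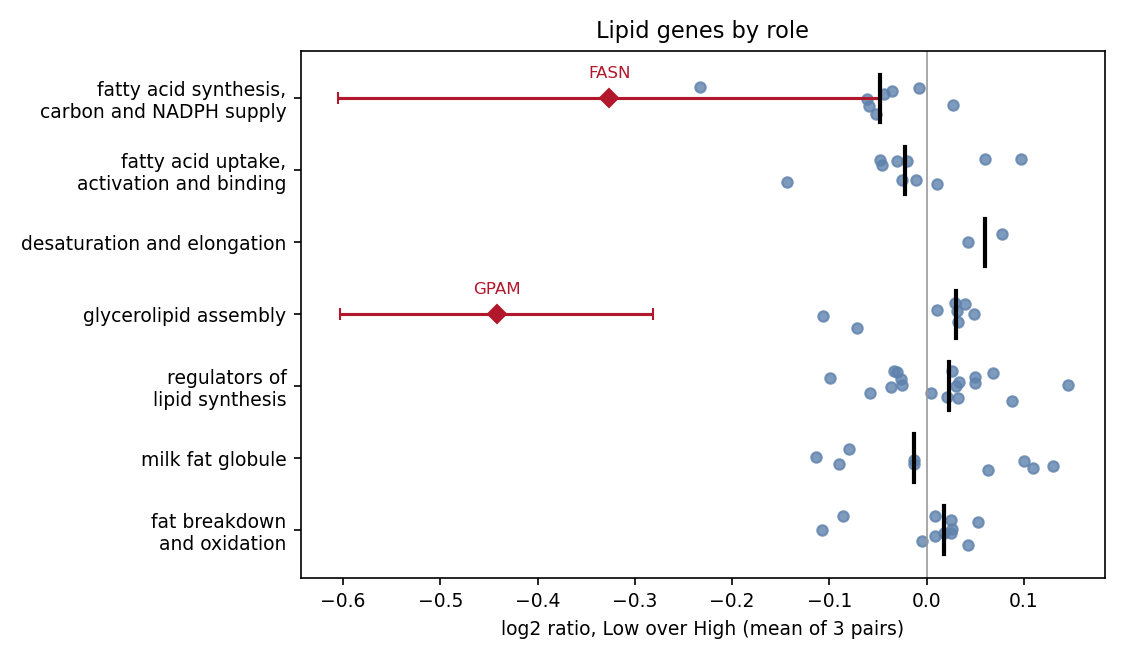
Mean log2 ratio of Low over High (x axis, 3 pairs) of the measured genes of 7 lipid lists (y axis). Blue points are single genes, black bars list medians, and red diamonds FASN and GPAM with bars of 1 SD. FASN (-0.33) and GPAM (-0.44) were chosen for their low ratios and stand to the left of every other gene shown, the nearest being ACSS2 at -0.23.

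The regulators that control FASN and GPAM in mammals include SREBF1, the transcription factor SREBP-1, with SCAP and INSIG1, which govern its release. SREBF1 had 0.0042 ± 0.06 (SD, n = 3 pairs), and its second probe had -0.06 ± 0.13 (SD, n = 3 pairs). SCAP had 0.07 ± 0.05 and INSIG1 -0.03 ± 0.17 (SD, n = 3 pairs each). THRSP, a nuclear protein tied to lipogenesis, had 0.03 ± 0.06 (SD, n = 3 pairs). Of 18 regulators measured, 0 passed in limma and the median was 0.02. USF1, a factor that binds the FASN promoter, was lowest at -0.10, and PPARD, a nuclear receptor for fatty acids, was highest at 0.15 (adjusted p = 0.807 in limma). PPARG had no probe under its symbol alone.

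Downstream, the milk fat globule carries the triacylglycerol out of the cell. BTN1A1, a major protein of its membrane, had 0.13 ± 0.30 (SD, n = 3 pairs), with -0.21 in pair 1 and 0.31 and 0.30 in pairs 2 and 3. Its value also turned with the dye, at -0.21 over arrays with Low in Cy5 and 0.47 over arrays with Low in Cy3. PLIN2, which coats lipid droplets, had -0.01 ± 0.22 (SD, n = 3 pairs), and XDH was not above background. Of 9 globule genes 0 passed in limma, the median was -0.01, and CIDEB, a lipid droplet protein, was lowest at -0.11. Of 11 genes of fat breakdown and oxidation 0 passed in limma, the median was 0.02, and the range ran between -0.11 for HADH and 0.05 for ECHS1, both enzymes of mitochondrial beta-oxidation. CPT1A had no probe under its symbol alone.

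Counting each gene once, 66 lipid genes other than FASN and GPAM were measured. Of these, 0 rose and 0 fell in limma, beside 0.11% of all probes. At an unadjusted p under 0.05, 1 was lower (ACSL6) and 1 was higher (PPARD), beside 5.36% of all probes. The median of the 66 genes, 0.01, lay near the 0.0014 of all probes. Of the 66, 0 had a mean ratio at or below that of FASN or GPAM. Below 0 in 3 of 3 pairs were 6 of the 66, beside 13.6% of all probes. Of the 61 with a value on all arrays, 0 were below 0 on 6 of 6, beside 1.4% of all probes with such values. The lists were drawn up with earlier results of these data known, and these counts describe the surroundings of FASN and GPAM without testing that the pair differs from them.

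The tissue label was checked with cell type markers, of which 0 passed in limma in any list, beside 0.11% of all probes. At an unadjusted p under 0.05, the share of all probes was 5.36%. Of the probes tested without a numeric identifier, 3100 of 6333 had a mean ratio below 0. Of 9 measured luminal epithelial markers 3 were below 0 and 6 above, with a median of 0.03 and a range between -0.26 (PAEP) and 0.19 (CSN3). Their summed signals lay between 59554 and 104664 units in Low and between 66625 and 116590 in High, and KRT8 was not above background. The most intense was PAEP, the milk protein beta-lactoglobulin, at -0.26 ± 0.11 (SD, n = 3 pairs; adjusted p = 0.424 in limma), a value that turned with the dye, at -0.63 over arrays with Low in Cy5 and 0.11 over arrays with Low in Cy3. At an unadjusted p under 0.05 were 2 of the 9, in opposite directions: PAEP, and KRT18, an epithelial keratin, at 0.13 ± 0.04 (SD, n = 3 pairs).

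Adipocytes also express FASN and GPAM. Of 8 measured adipocyte markers 7 were below 0, with a median of -0.03 and a range between -0.29 (LEP) and 0.11 (CFD). The share to set beside this and the counts below is 3100 of 6333 below 0, over probes tested without a numeric identifier. Their summed signals lay between 4045 and 7395 units in Low and between 4187 and 8156 in High. The most intense was PCK1 at -0.01, FABP4 was not above background, and ADIPOQ, the adipocyte hormone adiponectin, had -0.05 ± 0.06 (SD, n = 3 pairs). LEP, the hormone leptin, was the 1 adipocyte marker at an unadjusted p under 0.05, at -0.29 ± 0.21 (SD, n = 3 pairs; adjusted p = 0.732 in limma). That LEP ratio was -0.56 over arrays with Low in Cy5 and -0.0086 over arrays with Low in Cy3. The second LEP probe had 0.0055 ± 0.04 (SD, n = 3 pairs). All 5 measured myoepithelial markers were above 0, with a median of 0.08 between ACTA2 (0.02, the most intense) and KRT17 (0.23). KRT17 and MYLK (0.20), a keratin and a contractile kinase, were the 2 of them at an unadjusted p under 0.05. The 3 endothelial markers were above 0, with a median of 0.07 and EGFL7 (0.07) the most intense. Of 6 leukocyte markers 4 were below 0, with a median of -0.03, ITGB2 (-0.0063) the most intense, and 1 at an unadjusted p under 0.05, CD79A at -0.19. The 1 fibroblast marker, DCN, had -0.05. The part of cell content in the FASN and GPAM ratios was not tested.

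FASN and GPAM were then compared by their pattern over the 3 pairs, as the root mean square difference of their pair ratios. That difference was 0.23 between FASN and GPAM, and among the 6378 probes 26 were nearer to FASN than GPAM was and 21 were nearer to GPAM than FASN was. The 5 named genes nearest to FASN were PLAC1 (0.09), LEP (0.11), ABCB1 (0.14), FGFR4 (0.16) and PAEP (0.16). Each of them had its lowest ratio in pair 1 and its highest in pair 3, the order shown by FASN, which their selection by nearness to FASN favours. PLAC1, a placental and reproductive tissue protein, had a value on 4 arrays. Its Low signal was detected on 2 arrays, so it entered through the High signal alone, a route that favours ratios below 0. LEP is in the adipocyte list, as its lowest member, and PAEP in the luminal list, also as its lowest. This LEP probe was printed in the same sub-grid of the array as FASN, and the second LEP probe had 0.0055 ± 0.04 (SD, n = 3 pairs). The ratio of this LEP probe in sub-grid with FASN was -0.56 over arrays with Low in Cy5 and -0.0086 over arrays with Low in Cy3. The parts of array position and of dye effects in this likeness were not tested. The 5 nearest to GPAM were CSK (0.14), TFDP2 (0.14), NSUN4 (0.16), TLK1 (0.17) and UNC119 (0.18). The Low signal of TLK1 was likewise detected on 2 arrays, so it too entered through the High signal alone. CSK, a kinase that restrains Src, was printed directly beside the CSN1S1 spots. Likeness over 3 pairs with similar means is a description of few values, and none of these 10 genes belongs to the lipid lists.

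The place of the probes on the array was also examined. Neither FASN nor GPAM lay in the sub-grid that holds the strong CSN1S1 spots. CSK (-0.42) was next to the CSN1S1 spots in the same row, and COL2A1 (0.02) was on their other side. The neighbours of CSN1S1 other than CSK lay between -0.05 (LOC508628) and 0.14 (RPS24). The 10 spots around the FASN spots held 8 probes with median signals of at most 483 units above background. Of the 10 spots around the GPAM spots 6 were blank or empty, and none exceeded a median of 14.8 units. In the sub-grid of FASN the median ratio on the arrays of pair 3 was -0.16 with Low in Cy5 and 0.08 with Low in Cy3, a local difference with the same sign as the FASN values there (-0.48 and 0.40). Under print-tip loess, which normalizes each sub-grid by itself, FASN in pair 3 had -0.32 with Low in Cy5 and 0.34 with Low in Cy3. In the sub-grid of GPAM these medians were 0.01 and -0.04.

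By gene order in the goat assembly ARS1.2, used for names only, 10 protein-coding neighbours of each gene were listed. For FASN, DUS1L (0.07) and GPS1 (0.02) were measured, and for GPAM, TCF7L2 (0.02), ZDHHC6 (0.0045) and ACSL5 (-0.02). None of these 5 neighbours passed in limma. Each had a mean ratio above those of FASN and GPAM, an order that the choice of FASN and GPAM for low ratios favours.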

How the data were processed

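Mammary RNA of 6 goats was measured on 6 spotted 2-colour arrays of cattle probes, and the replicate in the main tests was the goat pair (n = 3). Per the labels, the authors quantified the scans with ImaGene 6.0. The deposited scanner files give the intensity of each spot and of its local background as means and medians over pixels, and, per the file headers, the background SD as a signal in the same scanner units. The deposited ratios per spot are on the log2 scale. Their software, normalization and centring are not stated in the labels or headers, while their scale and direction (Low over High) were settled by correlating them across spots with the scanner ratios (r of 0.868 to 0.927). The medians of the 6 deposited log2 columns lay between -0.01 and 0.02. Header and label named the same dye for all 12 files, and 0 columns of values were left unmapped.

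Here, background means were corrected by normexp (offset 50) and ratios normalized by global loess within arrays in limma (3.58.1, under R 4.3.3 with statmod 1.5.0), giving the 1536 empty and 906 blank spots weight 0. Manual and empty flags were set to missing and saturated spots kept. The labelled dyes gave the direction, Low over High, and values were averaged over the 2 spots and then within the pair. Probes entered the tests if every pair had at least 1 array on which the Low signal lay 2 background SDs above mean background, or likewise for the High signal. Tests were limma's lmFit and eBayes against 0, two-sided, at 0.05 after Benjamini-Hochberg adjustment across these probes. The dye effect was the difference, divided by 2, between the arrays of a pair, fitted in the same way. The fit was tested on simulated data. Symbols came from the platform annotation, which can be old.

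The members and the 7 lipid and 6 marker lists were chosen with earlier results of these data known. Genes named are both members, CSN1S1, a fixed set of lipid genes, the lowest and highest gene of each lipid list, the brightest marker per cell type and the 5 nearest genes to each member. GPAT2, GPAT3, ADIPOQ, KRT8, KRT18, FABP4, CFD, KRT17, MYLK, CD79A, CSN3, SREBF2 and the genome neighbours fall outside that rule and were added with values in view. A gene with several probes was represented by its most intense probe. The labels number 6 goats, and p-values measure the spread between these 3 pairs. Alternatives covered background, normalization, flags, filters, dyes, left-out pairs, moderation and the authors' values.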

Additional observations from a re-analysis of the deposited data

Results flagged for a closer look

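Array ratios of 41 genes were screened for a single array far from the others by Dixon's gap test. The genes were FASN, GPAM, CSN1S1, the named lipid genes and markers, and the genes nearest to FASN or GPAM. Chance alone meets this test in about 1 of 20 sets of independent values. The arrays here are dye-swapped pairs of the same RNA, so that rate need not hold. Most genes had a value on 6 arrays, but THRSP, ELOVL1 and NSUN4 had 5, and ACSS2 and PLAC1 had 4. Neither FASN nor GPAM met the Dixon test. In 3 sets it was met, each time by the pair 3 array with Low in Cy3, the array with the lowest agreement between duplicate spots and the one on which FASN was higher in Low. On it INSIG1, a regulator of SREBP release, had a log2 ratio of 0.63, against -0.32 to 0.02 on the other arrays. PGD, an NADPH-producing enzyme, had 0.30 there, against -0.13 to 0.03 elsewhere. EGFL7, an endothelial marker, had 0.46, against -0.14 to 0.06 elsewhere. Without this array, FASN had a mean ratio of -0.47 and GPAM -0.45. Pair 3 then rests on Low in Cy5 alone, so its dye effect (-0.44 for FASN and -0.01 for GPAM) no longer cancels. The change in the FASN mean thus cannot be told apart from the dye effect.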

How the results depend on the processing

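Of the 23 alternatives, 3 were chosen after seeing the data: each spot alone, and leaving out the pair 3 array with Low in Cy3. FASN was below 0 and within 1 SD of -0.33 in 20 of 20 alternatives that apply to it, between -0.60 (arrays with Low in Cy5 only) and -0.05 (Low in Cy3 only), and between -0.47 and -0.19 with 1 pair left out. GPAM was within 1 SD of -0.44 and below 0 in 20 of 20, between -0.58 (background means subtracted) and -0.35 (Low in Cy3 only), and between -0.52 and -0.36 with 1 pair left out. The FASN SD of 0.28 is wide enough to take in -0.05. All alternatives reuse the arrays on which both genes were chosen for low ratios, so these counts do not test the ratios. The pair of goats is the replicate in the main fit, so the dye swap is already paired there. The alternative with the pair as a random block was fitted over all 6 arrays instead. With 1 dye orientation, or without the pair 3 array with Low in Cy3, the dye swap is incomplete. The 7 probes called became 4 with no background correction, 3 with background subtracted, 2 with offset 0, 12 with detection on all 6 arrays, 14 with trended and robust moderation, 32 with the pair as a random block (correlation -0.50), 1 without the pair 3 array with Low in Cy3, and 2 to 32 with 1 pair left out (2 without pair 2, 32 without pair 3). Without moderation 0 were called by limma, and 346 had an unadjusted p under 0.05. With 1 dye orientation, which leaves dye effects in the ratio, 1026 were called with Low in Cy5 (531 lower) and 484 with Low in Cy3 (267 lower), among them 14 and 6 lipid genes, while lipid genes called stayed at 0 elsewhere. LPL reversed, at 0.61 with Low in Cy5 and -0.71 with Low in Cy3. For list medians, Low in Cy5 gave 0.19 for fatty acid synthesis, -0.11 for uptake, -0.0313 for glycerolipid assembly, -0.0513 for regulators, -0.17 for the fat globule and 0.0411 for breakdown. Low in Cy3 gave -0.29 for synthesis, 0.0581 for uptake, 0.11 for regulators and -0.0380 for breakdown. The desaturation median was 0.11 with background subtracted, 0.0204 with median centring and -0.0457 with the deposited ratios. The breakdown median was 0.0105 with offset 0, 0.0144 with background medians, 0.0083 with print-tip loess, -0.0076 with median centring, 0.0106 with the deposited ratios, 0.0080 with flags ignored, 0.0129 with detection on all arrays and 0.0276 with scaling between arrays. With 1 pair left out, the medians ran between 0.0062 and 0.0232 for glycerolipid assembly, -0.0581 and -0.0035 for synthesis, -0.0217 and 0.0285 for regulators, and 0.0094 and 0.0336 for breakdown. The FASN dye effect was -0.16 with print-tip loess, and the GPAM one ran between -0.13 and -0.0663 with 1 pair left out. Apart from the dye orientation, the cause of these moves was not tested. Dim GPAM spots and 3 pairs limit the precision.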

Other observations

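GPAM lay in a small set of probes whose identifiers are plain numbers, apart from the main Bt series that holds FASN. Of 50 such probes, spread over 26 sub-grids, 45 were above background, with a median log2 ratio of Low over High of -0.05, and 33 of 45 were below 0. Of the 6333 other probes kept, 3100 were below 0 and the median was 0.0016. GPAM, which is counted among the 45, had the lowest mean ratio of them, a rank that its choice for a low ratio favours. Of the 45, 0 passed in limma. Some genes had a probe of either kind. LEP had -0.29 ± 0.21 on its numeric probe and 0.0055 ± 0.04 on its Bt probe (SD, n = 3 pairs each). SREBF1 had -0.06 ± 0.13 on the numeric probe and 0.0042 ± 0.06 on the Bt probe, and SREBF2, the paralog that favours cholesterol synthesis, had 0.0022 ± 0.14 and 0.03 ± 0.05 (SD, n = 3 pairs each). CSN3, the kappa-casein gene, had 0.19 ± 0.44 on the numeric probe and 0.10 ± 0.38 on the Bt probe (SD, n = 3 pairs each). GPAM had no second probe, so its value was measured by a numeric probe alone, and the part of the probe set in the GPAM ratio was not tested.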
